A study of Homo sapiens with 5 samples.

Results

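The core and variant histone genes measured on these arrays are described here in KM-H2 (labelled KMH2), a long-established Hodgkin lymphoma line of B cell origin. Members are genes whose symbol begins with H2A, H2B, H3 or H4 followed by C, a hyphen, Z, X or a digit, or with MACROH2A, and which have a probe set annotated with that symbol alone. This gave 39 of 7713 genes, each with 1 such probe set. Of these, 34 are replication-dependent copies (7 of H2A, 12 of H2B, 8 of H3 and 7 of H4) and 5 are variants (H2AZ1, H2AZ2, H2AX, MACROH2A1 and MACROH2A2). LY294002 at 30 uM was given for 16 hours before the RNA of 2 arrays was taken, and DMSO, the solvent, before that of 3 arrays, in RPMI1640 with fetal calf serum and pen/strep for both groups. LY294002 is a morpholine compound used to inhibit phosphoinositide 3-kinase. The study planned triplicates and left 1 further array out for high background. The labels do not say whether arrays of a group came from different cultures, and the p-values cover no more than the spread among the arrays, possibly a technical one.

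Core histones form the protein spool of the nucleosome, in which H2A pairs with H2B and H3 with H4. Replication-dependent copies lie in gene clusters and are transcribed mainly in S phase, and most of their mRNAs end in a stem-loop instead of a poly(A) tail. Most variant histones are made through the cell cycle from polyadenylated mRNAs. Among the variants, H2A.Z sits around promoters, H2A.X is phosphorylated at DNA breaks, and macroH2A marks silent chromatin. Copies of a core histone have nearly the same coding sequence, so an array probe can bind RNA of several of them. Affymetrix names that end in _x_at or _s_at mark probe sets whose probes match several transcripts, while plain names end in _at alone. A plain name does not mean that a probe set reads a single gene, as some plain probe sets here are annotated to several histone genes. How the labelling reaction was primed is not given in the sources used here, and the part of mRNAs with a poly(A) tail in each value was not tested.

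All values are on the log2 scale of the deposited table. Array medians lay between 6.26 and 6.29. The B cell marker MS4A1 (mean of DMSO arrays 10.4) and the Hodgkin markers CD40 (10.4), CD83 (10.7) and TNFRSF8 (8.23) lay above them, while the B cell markers CD79A (6.05) and CD79B (5.18) lay below. All 4 measured T cell markers (CD3D, CD3E, CD3G and CD2) were also above the median, at 6.71 to 8.80. The 3 measured myeloid markers lay between 5.65 and 6.03. Of the 3 fibroblast markers, COL1A1 was above the median at 6.90, and COL1A2 and COL3A1 were below it. The lowest limma adjusted p of a difference between groups among the 20 markers measured was 0.0730, for MS4A1. Probe set values cannot be compared as levels between genes.

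Among the 39 histone genes, 5 rose and 0 fell with LY294002 (limma adjusted p under 0.05 over 8746 probe sets). The background is 0.908% of all genes called, 0.609% rising and 0.298% falling. H2B copies made up most of the risers: 4 of 12 H2B copies rose (H2BC5, H2BC12L, H2BC6 and H2BC21), and 1 of 7 H2A copies (H2AC6). No copy of H3 (0 of 8) or H4 (0 of 7) and no variant (0 of 5) passed limma, while 2, 1 and 2 of them had an unadjusted p under 0.05. Over the 39 that count was 15 (38.5%), against 17.1% of all genes. Differences between these families were not tested. The groups did not overlap for 18 histone genes, with LY294002 higher in 16 and lower in 2, against 16.2% and 13.4% of all genes. At least 2-fold differences were seen for 6 histone genes, all higher, against 0.311% of genes. The median difference over the 39 genes was nevertheless only 0.048, against -0.011 over all genes. Differences were above 0 in 27 of the 39, against 3436 of all 7713 genes. The arrays measure bulk RNA, so fewer cells expressing a gene and less RNA per cell cannot be told apart.

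**Figure D1:**
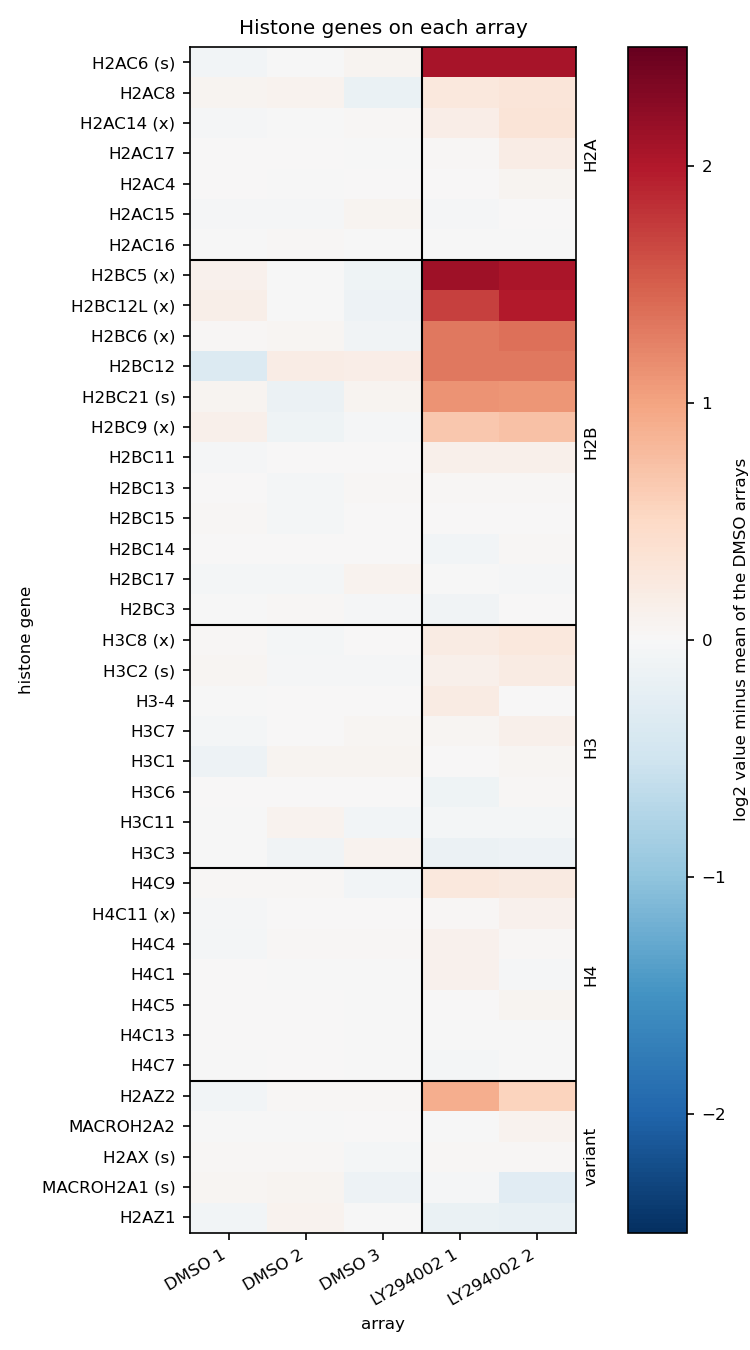
Heat map of 39 histone genes (rows, grouped by histone and ordered by difference) on 5 arrays (columns); colour is the log2 value minus the mean of the 3 DMSO arrays, and (x) or (s) after a name marks an _x_at or _s_at probe set. The strongest red cells lie in the LY294002 columns of H2AC6, 6 H2B copies and H2AZ2, while most rows of H3 and H4 stay near white.

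H2BC5, a copy of H2B, stood at 7.57, 7.45 and 7.36 on the DMSO arrays and at 9.57 and 9.50 on the LY294002 arrays. It rose 4.22-fold (log2 2.08 ± 0.07, standard error of the fit; limma adjusted p = 0.00626), the largest difference of the 39. The lowest LY294002 array was far above the highest DMSO array. H2AC6, a copy of H2A, had 6.54, 6.60 and 6.67 with DMSO and 8.66 and 8.66 with LY294002. Its rise was 4.15-fold (2.05 ± 0.05, adjusted p = 0.00399), and its LY294002 arrays differed by less than its DMSO arrays did. H2AC6 was thus the only H2A copy among 7 whose difference passed, the next highest being H2AC8 at 0.27 ± 0.09.

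H2BC12L, a copy of H2B outside the main clusters, had 7.50, 7.34 and 7.23 with DMSO and 9.08 and 9.33 with LY294002, a rise of 3.59-fold (1.84 ± 0.12, adjusted p = 0.0200). H2BC6 had 5.60, 5.63 and 5.49 with DMSO and 6.89 and 6.96 with LY294002, a rise of 2.55-fold (1.35 ± 0.05, adjusted p = 0.00626). H2BC6 started below the array medians and ended above them. H2BC21, a copy of the smaller cluster on chromosome 1, had 6.76, 6.53 and 6.76 with DMSO and 7.81 and 7.79 with LY294002, a rise of 2.18-fold (1.12 ± 0.08, adjusted p = 0.0294). The arrays of the groups did not overlap for any of these 3 genes. The probe sets of all 5 genes that rose are of the _x_at or _s_at kind, and none of these values can be assigned to a single gene with certainty.

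A pair of other H2B copies came close to the threshold. H2BC12 is measured by a plain probe set and had 8.36, 8.88 and 8.86 with DMSO and 10.02 and 10.01 with LY294002. Its 2.49-fold difference (1.32 ± 0.18) had an adjusted p of 0.0645 with limma, and DMSO replicate 1 was lower than the rest of its group. Leaving that array out gave 1.15, which passed (limma adjusted p = 0.0408). H2BC9 had 5.83, 5.59 and 5.67 with DMSO and 6.38 and 6.43 with LY294002, a difference of 0.71 ± 0.08 (limma adjusted p = 0.0504). It passed in 6 of 12 alternative settings, as did H2BC12. The passes of H2BC9 include the fit without the dimmest probe sets, where it was kept only through its LY294002 arrays. That pass adds no support for H2BC9. For both genes the groups were separate on the arrays.

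The remaining 6 H2B copies (H2BC3, H2BC11, H2BC13, H2BC14, H2BC15 and H2BC17), all on plain probe sets, had differences of -0.041 to 0.12. Only H2BC15 among them had a mean value above the median of all probe sets. Near the lower end of the scale a change can show only in part. H2BC11 was highest of the 6, at 4.17, 4.21 and 4.19 with DMSO and 4.31 and 4.32 with LY294002. H2BC3 was lowest, at 4.45, 4.47 and 4.42 with DMSO and 4.36 and 4.46 with LY294002 (-0.041 ± 0.04, limma adjusted p = 0.611), and its groups overlapped. Of the 12 H2B copies, then, the LY294002 arrays lay above the DMSO arrays in 7, H2BC11 included, and in 0 did they lie below. Over all genes these shares were 16.2% and 13.4%.

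**Figure D2:**
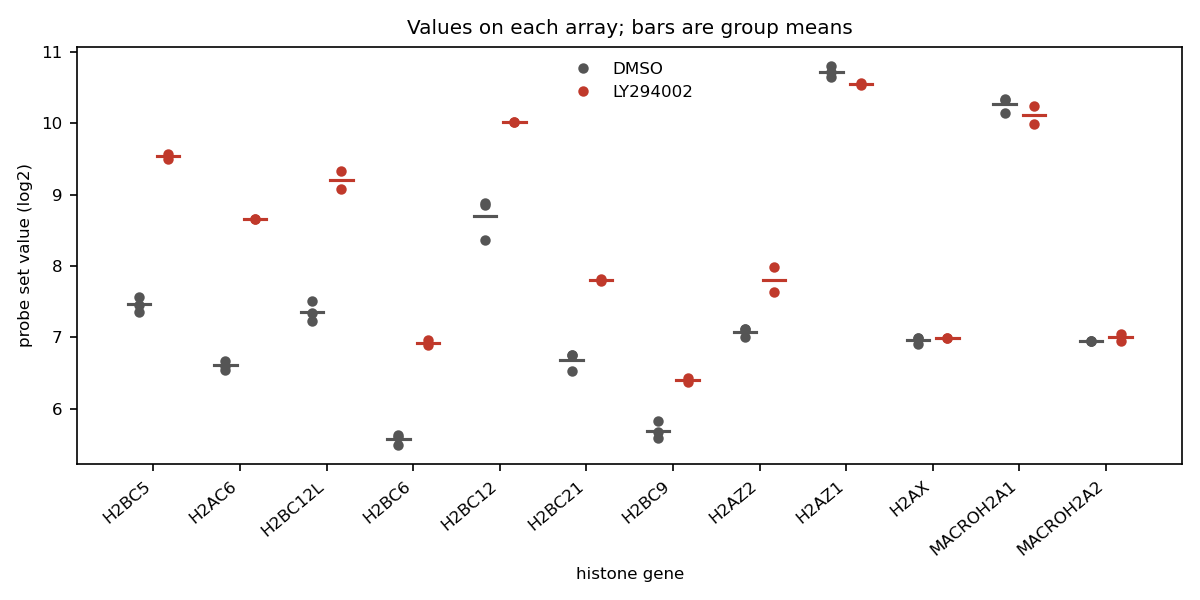
Probe set values (log2, vertical axis) of 7 replication-dependent and 5 variant histone genes on each array; points are arrays (grey DMSO, n = 3; red LY294002, n = 2) and bars are group means. The red points lie above the grey ones for the 7 replication-dependent genes and H2AZ2, and below them for H2AZ1. For H2AX, MACROH2A1 and MACROH2A2 the ranges of red and grey points overlap.

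Most or all of the 5 calls were lost when 1 array was left out, and so were those over the whole table. Of 7713 genes, 70 passed limma with all arrays and 4 without DMSO replicate 1. Without DMSO replicate 2 or without DMSO replicate 3, 0 genes passed. Without DMSO replicate 1, 3 histone genes passed limma (H2BC5, H2AC6 and H2BC12). Without DMSO replicate 2, DMSO replicate 3, LY294002 replicate 1 or LY294002 replicate 2, 0 passed. In these fits 13 to 17 of the 39 (33.3% to 43.6%) had an unadjusted p under 0.05, against 12.3% to 27.0% of all genes. Sizes moved little: over 12 alternatives the difference of H2BC5 lay between 2.01 and 2.13, that of H2AC6 between 2.01 and 2.09, and that of H2BC21 between 1.05 and 1.16.

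Promoter sequence is shown because genes of this family are known to share promoter elements. It is given for 4 of the genes that rose, for H2BC12, and for H2BC3 and H2BC11, whose differences were small (-0.041 and 0.12). Values of H2BC3 and H2BC11 lay near the lower end of the scale, where a change can show only in part. The LY294002 arrays of H2BC11 nevertheless lay above its DMSO arrays. RefSeq windows (GRCh38.p14) matched 36 of the 39 genes; the other 3 (H2BC12L, H4C1 and H3C11) had none in the table. Each line gives the 250 bases before the gene start, 5′ to 3′ on the gene's strand, from the first start listed. Capitals mark the octamer ATTTGCAT (bound by Oct factors), CCAAT (bound by NF-Y) and TATAAA (known from core promoters), searched on both strands; where matches overlap they form a single run. The windows are chr6:26157871-26158120 (+ strand) for H2BC5, chr6:26123922-26124171 (+) for H2AC6, chr6:26183511-26183760 (+) for H2BC6, chr1:149886683-149886932 (- strand) for H2BC21, chr6:27146859-27147108 (-) for H2BC12, chr6:26043714-26043963 (-) for H2BC3 and chr6:27132796-27133045 (-) for H2BC11.
H2BC5: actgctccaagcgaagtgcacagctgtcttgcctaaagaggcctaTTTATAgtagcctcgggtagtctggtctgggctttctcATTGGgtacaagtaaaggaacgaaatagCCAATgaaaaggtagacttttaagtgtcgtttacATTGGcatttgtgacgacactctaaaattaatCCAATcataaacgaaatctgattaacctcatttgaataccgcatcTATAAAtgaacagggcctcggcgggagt
H2AC6: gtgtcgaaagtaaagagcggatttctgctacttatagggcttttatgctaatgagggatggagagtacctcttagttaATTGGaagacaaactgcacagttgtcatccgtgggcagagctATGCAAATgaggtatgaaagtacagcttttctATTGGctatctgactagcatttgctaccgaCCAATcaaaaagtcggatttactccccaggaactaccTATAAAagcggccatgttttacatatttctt
H2BC6: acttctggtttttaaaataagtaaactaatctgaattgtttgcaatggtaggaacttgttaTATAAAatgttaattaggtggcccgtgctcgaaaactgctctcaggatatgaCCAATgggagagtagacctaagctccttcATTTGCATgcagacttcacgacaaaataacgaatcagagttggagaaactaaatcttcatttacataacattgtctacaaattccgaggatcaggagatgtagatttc
H2BC21: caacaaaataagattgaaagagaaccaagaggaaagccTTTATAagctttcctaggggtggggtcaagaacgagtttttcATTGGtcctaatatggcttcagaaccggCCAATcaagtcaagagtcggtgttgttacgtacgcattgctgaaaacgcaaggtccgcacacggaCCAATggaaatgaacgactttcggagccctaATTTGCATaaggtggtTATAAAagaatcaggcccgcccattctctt
H2BC12: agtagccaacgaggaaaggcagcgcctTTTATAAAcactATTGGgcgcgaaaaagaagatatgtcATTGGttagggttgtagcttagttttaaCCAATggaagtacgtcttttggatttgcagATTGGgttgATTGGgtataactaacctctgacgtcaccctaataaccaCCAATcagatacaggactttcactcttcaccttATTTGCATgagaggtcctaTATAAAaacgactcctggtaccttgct
H2BC3: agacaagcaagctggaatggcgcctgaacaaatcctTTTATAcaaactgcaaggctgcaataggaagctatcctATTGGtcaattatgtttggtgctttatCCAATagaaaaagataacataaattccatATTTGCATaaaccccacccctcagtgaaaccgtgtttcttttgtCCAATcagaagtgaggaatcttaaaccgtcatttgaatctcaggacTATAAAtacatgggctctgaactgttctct
H2BC11: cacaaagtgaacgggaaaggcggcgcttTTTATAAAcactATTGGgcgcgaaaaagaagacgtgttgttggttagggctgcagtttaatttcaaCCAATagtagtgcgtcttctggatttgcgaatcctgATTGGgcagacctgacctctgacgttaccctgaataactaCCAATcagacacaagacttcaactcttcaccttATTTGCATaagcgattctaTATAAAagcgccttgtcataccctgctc

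The octamer was found before 8 of 11 H2B copies and 6 of 7 H2A copies, but before 0 of 7 H3 copies, 0 of 6 H4 copies and 0 of 5 variants, against 1.66% of 27305 promoters of that length. CCAAT was found before all 18 H2A and H2B copies with a window, and before 33.0% of all promoters. TATAAA was found before 9 of 11 H2B and 5 of 7 H2A copies, and before 11.1% of all promoters. A match describes the sequence and is not a measured site. Whether these letters go with the size of the difference was not tested. Values on _x_at or _s_at probe sets, that of H2BC5 included, cannot be assigned to a single gene with certainty. Most H2A and H2B copies with small differences had a mean value below the median of all probe sets. Near the lower end of the scale a change can show only in part. H2BC5, with the largest difference, holds no exact octamer in its window. H2BC11, with a difference of 0.12, holds it at -47 to -40 from the start, next to the -46 to -39 of H2BC12 and H2BC21. Among H2B copies the octamer was in 5 of 6 windows of genes whose LY294002 arrays lay above all DMSO arrays. These include H2BC11. It was in 3 of 5 windows of the others.

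**Figure D3:**
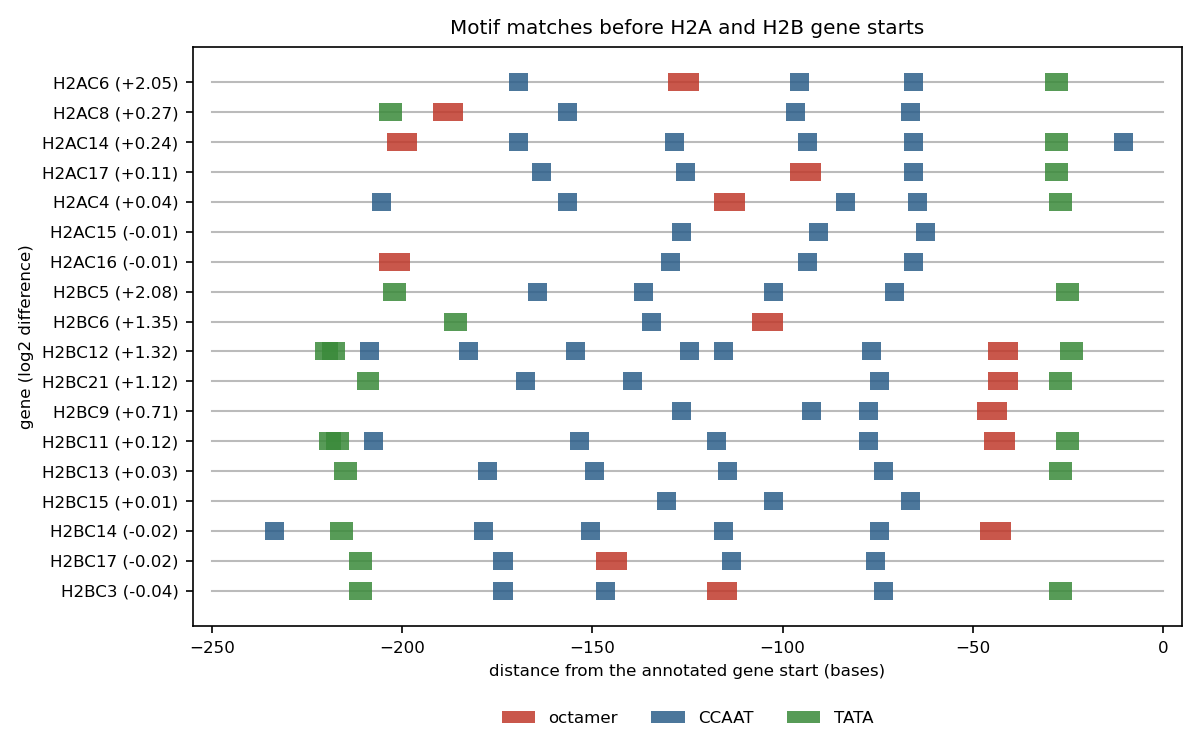
Matches to the octamer (red), CCAAT (blue) and TATAAA (green), on either strand, in the 250 bases before the annotated starts of 18 H2A and H2B copies (rows, with the log2 difference in brackets); the horizontal axis is the distance from the start in bases. Red marks appear in rows with large and with small differences alike, and the H2BC5 row has none.

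H2A and H2B copies are often transcribed away from each other from a shared stretch, and 3 such pairs have both genes measured. H2AC14 and H2BC14, whose starts lie 245 bases apart, had differences of 0.24 and -0.016. H2AC17 and H2BC17, 240 bases apart, had 0.11 and -0.021, and H2AC15 and H2BC15, 194 bases apart, -0.012 and 0.0095. No gene of these pairs passed (0 of 6 with limma, against 0.908% of all genes). An unadjusted p under 0.05 was seen for 1 of the 6, H2AC14, against 17.1% of all genes. Neither count sets these pairs apart from all genes.

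H3 and H4 copies, which form the inner tetramer of the nucleosome, moved little on probe sets with 1 symbol. Differences of the 8 H3 copies ran from -0.14 to 0.24 with a median of 0.061, and those of the 7 H4 copies from -0.033 to 0.24 with a median of 0.040. H3C8 was highest among H3 copies, at 5.68, 5.62 and 5.68 with DMSO and 5.87 and 5.92 with LY294002 (0.24 ± 0.04, limma adjusted p = 0.0765). H3C3 was lowest, at 5.60, 5.51 and 5.70 with DMSO and 5.45 and 5.48 with LY294002 (-0.14 ± 0.06, adjusted p = 0.380), and H3C11 stood at -0.042 ± 0.05 (0.660). The LY294002 arrays of H3C8 lay above the DMSO arrays and those of H3C3 below. Of these 15 genes, 14 had a mean value below the median of all probe sets, and near the lower end of the scale a change can show only in part. The exception, H3C6, had 7.22 on each of the 3 DMSO arrays and 7.12 and 7.25 with LY294002.

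Variants differed among themselves. H2AZ2, which encodes one of the H2A.Z proteins, had 7.00, 7.12 and 7.12 with DMSO and 7.98 and 7.64 with LY294002. That 1.66-fold difference (0.73 ± 0.12) did not pass (limma adjusted p = 0.0770), and leaving out LY294002 replicate 2 gave 0.90, leaving out LY294002 replicate 1 gave 0.56. It passed in 3 of 12 alternative settings, with limma adjusted p-values of 0.0244 after quantile normalization, 0.0403 without the dimmest 40% of probe sets and 0.00780 without probe sets with identical values. H2AZ1, which encodes the other H2A.Z protein, had 10.6, 10.8 and 10.7 with DMSO and 10.6 and 10.5 with LY294002. Its LY294002 arrays lay below all DMSO arrays, by a small margin (-0.18 ± 0.06, limma adjusted p = 0.225). The H2A.Z genes thus pointed in opposite directions, and neither passed as reported.

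H2AX had 6.98, 6.98 and 6.90 with DMSO and 6.99 and 6.98 with LY294002 (0.029 ± 0.04, limma adjusted p = 0.685). MACROH2A1 had 10.3, 10.3 and 10.1 with DMSO and 10.2 and 9.99 with LY294002 (-0.15 ± 0.11, adjusted p = 0.471). MACROH2A2 had 6.95 on all 3 DMSO arrays and 6.95 and 7.05 with LY294002 (0.048 ± 0.04, adjusted p = 0.526). The groups overlapped for these 3 genes. H3-3A and H3-3B, the genes of variant H3.3, share their probe sets with other symbols and are no members.

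The median difference was 0.065 over 34 copies and 0.029 over 5 variants. Taken on each array relative to the DMSO means, the median of the copies minus that of the variants was 0.000093, -0.036 and 0.0044 on the DMSO arrays and 0.045 and 0.043 on the LY294002 arrays. Both LY294002 values thus lay above the 3 DMSO values, by a step of about the size of the spread among the DMSO arrays. At the upper end, 6 of 34 copies were at least 2-fold higher, against 0 of 5 variants. This was not tested, since the genes share arrays and sequence. The gap between the class medians depended on which probe sets entered. Copies minus variants gave -0.013 without _x_at and _s_at members, 0.36 without probe sets with identical values (20 copies and 3 variants left) and 1.09 without the dimmest 40% of probe sets (11 copies and 5 variants left). That last filter kept H2BC6 and H2BC9 only through their LY294002 arrays, so its value supports no difference between the classes.

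Among the members, probe set kind went with the size of the difference. Histone probe sets with several symbols, which are no members, were mixed. Their differences ran from -0.17 to 1.18 on plain ones and from 0.027 to 2.20 on _x_at or _s_at ones. For the same 5 H2B copies the plain probe set was 0.68 higher, and the _x_at ones 0.60 and 0.51. The 12 histone genes on _x_at or _s_at probe sets had a median of 0.48, and the 27 on plain ones a median of 0.035. On the LY294002 arrays the medians relative to the DMSO means were 0.45 and 0.53 for the first and 0.0056 and 0.029 for the second. All 5 genes that rose were among the 12, and 0 of 27 on plain probe sets passed limma (6 with an unadjusted p under 0.05, or 22.2%, against 14.9% of all genes on plain probe sets). In the whole table, 0.925% of genes on _x_at or _s_at probe sets rose and 0.393% of those on plain ones. LY294002 was higher without overlap in 10 of the 12 and in 6 of the 27, against 20.2% and 13.4% of all genes on such probe sets. The 2 exceptions among the 12, H2AX and MACROH2A1, are variants. In all 10 replication-dependent copies on _x_at or _s_at probe sets the arrays were thus separate, with differences of 0.066 to 2.08.

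The kinds also differed in brightness, which was not separated from their probe design. Of the 12, 7 were brighter than the median of all probe sets, and of the 27 plain ones 6 were. Among bright members the median was 1.12 on _x_at or _s_at and 0.029 on plain probe sets, and among dim ones 0.24 over 5 genes and 0.035 over 21. Within H2B, the 5 copies on _x_at or _s_at probe sets had differences of 0.71 to 2.08. The 7 on plain ones had differences of -0.041 to 1.32, with H2BC12 at the upper end. How far the rises on _x_at or _s_at probe sets are of several genes, or of 1 gene read several times, was not tested. In 16 members (41.0%) a value was repeated exactly within a group, against 38.1% of all genes.

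**Figure D4:**
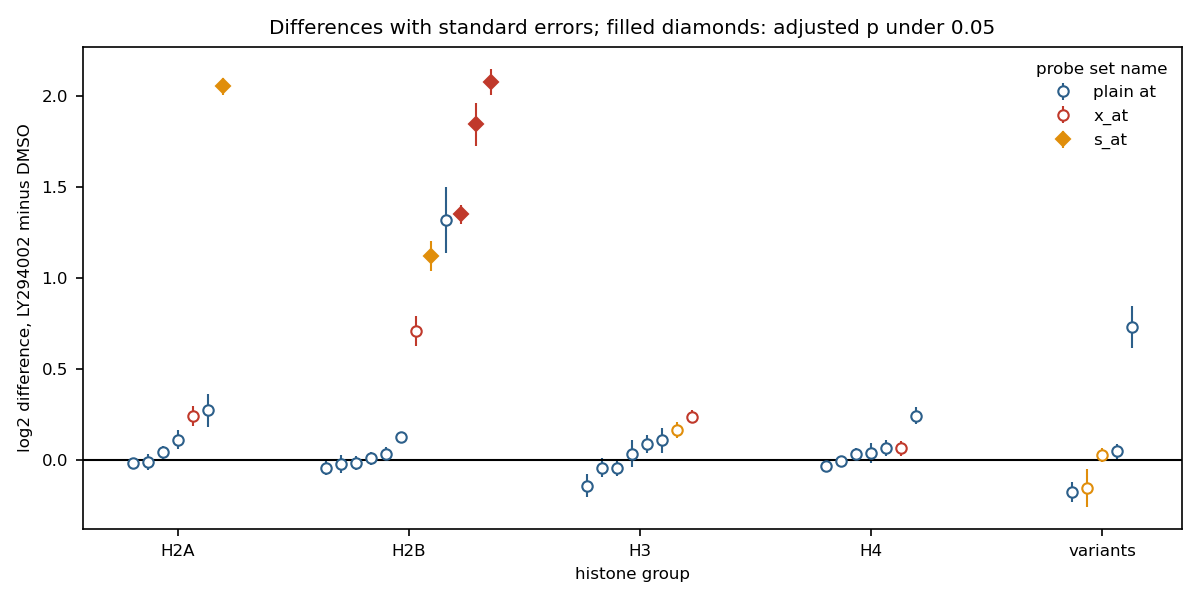
Log2 difference, LY294002 minus DMSO (vertical axis), of each of the 39 histone genes with its standard error, by histone group; colour gives the kind of probe set, and filled diamonds mark an adjusted p under 0.05. All 5 diamonds are _x_at or _s_at probe sets of H2A or H2B, and H2BC12 and H2AZ2 are the plain probe sets farthest above 0.

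Genes that supply histones were read from a list of 3 parts. For transcription and 3′ processing of histone mRNA, 14 of 25 listed symbols were measured, 0 passed limma and the median difference was 0.0027. An unadjusted p under 0.05 was seen for 4 (28.6%), against 17.1% of all genes. SLBP, which binds the histone stem-loop, had 8.57, 8.81 and 8.72 with DMSO and 8.51 and 8.23 with LY294002 (-0.33 ± 0.12, limma adjusted p = 0.270). Its LY294002 arrays were the lowest of the 5. NPAT, the cyclin E-dependent activator of histone genes, stood at 0.025 ± 0.04 (adjusted p = 0.704), and UPF1, a helicase that takes part in histone mRNA decay, at 0.41 ± 0.15 (0.290).

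Of 33 chaperones and deposition factors 22 were measured, 0 passed limma, and the median was -0.068. An unadjusted p under 0.05 was seen for 4 (18.2%), near the 17.1% of all genes. MCM2, a helicase subunit that also holds H3 and H4, was at -0.57 ± 0.13 (limma adjusted p = 0.133), and ATRX, which deposits H3.3, at 0.43 ± 0.13 (0.217). Of 20 replication genes 17 were measured, 10 with an unadjusted p under 0.05 (limma, background 17.1%), with a median of -0.31, and the LY294002 arrays lay below all DMSO arrays in 13 (background 13.4%). In that part 1 gene fell and 0 rose: POLE2, a subunit of DNA polymerase epsilon, had 8.05, 8.11 and 8.12 with DMSO and 7.72 and 7.75 with LY294002 (-0.36 ± 0.04, limma adjusted p = 0.0388). RRM1, of ribonucleotide reductase, was at -0.60 ± 0.14 (0.145), and FEN1, the flap nuclease, at -0.54 ± 0.09 (0.0894). The histone copies that rose did so on arrays where 17 of 17 measured replication genes had differences below 0. Of all 7713 genes, 4277 had a difference below 0. The call of POLE2 was lost without any 1 of the 5 arrays (0 of 53 supply genes passed in each of these fits).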

How the data were processed

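Biotin-labelled cRNA from total RNA of KM-H2 cells was hybridised to Affymetrix arrays, per the labels' protocols. The authors deposited log2 probe set values for which the submitters' processing notes name affy; how background was corrected and probes were summarised is not stated there. Values were used as deposited, without the 47 control probe sets. For arrays, their number limits the precision. Symbols came from the platform annotation: of 8746 probe sets, 7840 had 1 symbol, 388 several and 518 none. The brightest probe set over the 5 arrays stood for a gene. LY294002 was compared with DMSO by limma 3.58.1 (lmFit and eBayes, R 4.3.3), group as the only term, Benjamini-Hochberg adjustment over 8746 probe sets, threshold 0.05, with 3 residual degrees of freedom. The fit was tested on simulated data. Medians over members carry no test. Copies named with C and a number, and H3-4, counted as replication-dependent.

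The members and lists were chosen with earlier results of these data known. Named genes are members past the threshold, the 3 highest and 3 lowest of each class, a few fixed by name, and, in each part of the supply list, up to 3 past the threshold and the 2 largest differences; others named were chosen after their values were seen. Alternatives were a replicate block, members on plain probe sets alone, each array left out, quantile normalization, centring on medians, removal of the dimmest 40% of probe sets, a trended robust prior, and averaging the probe sets of a gene. Removal of probe sets with identical values was added after seeing the data. Figures were drawn with matplotlib 3.10.9.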

Additional observations from a re-analysis of the deposited data

How the results depend on the processing

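The 70 genes called were 299 after quantile normalization, 147 after median centring, 203 without dim probe sets, 510 without probe sets with identical values, 0 with the replicate block (820, or 10.6%, at an unadjusted p under 0.05, limma), and 0 to 4 without 1 array. The 5 histone genes called were 9, 7, 8, 8 and 0 in the same order (the block left 12, or 30.8%, at an unadjusted p under 0.05), 0 without _x_at and _s_at members and 0 to 3 without 1 array. All 5 were among those called in each setting with more calls. Of the 8 called without dim probe sets, H2BC6 and H2BC9 were kept only through their LY294002 arrays. Their calls in that setting add no support. Supply genes called, 1 in all, were 5 after quantile normalization, 2 without dim probe sets, 7 without identical values, and 0 with the intensity trend, the block or any 1 array left out. The median of replication-dependent copies was 1.12 without dim probe sets (11 genes left, H2BC6 and H2BC9 only through their LY294002 arrays, as their DMSO means lay below the limit), 0.077 with the block, 0.20 without identical values, 0.035 on plain probe sets, and 0.045 to 0.077 without 1 array. That of variants was -0.0054 after quantile normalization, 0.0024 with the block, -0.15 without identical values, and -0.000093 to 0.042 without 1 array. Copies minus variants gave 0.079 after quantile normalization, 1.09 without dim probe sets, 0.075 with the block, 0.36 without identical values, -0.013 on plain probe sets, and 0.0070 to 0.075 without 1 array. On _x_at and _s_at probe sets the median was 1.12 without dim probe sets, 0.92 without identical values and 0.44 to 0.53 without 1 array. That 1.12 is over 9 genes, with H2BC6 and H2BC9 again kept only through their LY294002 arrays. It supports no difference between kinds of probe set, nor does the 1.09 support one between classes. On plain probe sets the median was 0.0056 to 0.037 without 1 array. Fewer genes enter the fits without dim or identical values; the cause of the other shifts was not tested. Deviations from the group means correlated at 0.0021 for arrays of number 1 and -0.21 for those of number 2. The deviations of the 2 LY294002 arrays mirror each other, so these values cannot tell whether arrays of the same number pair. The block leaves DMSO replicate 3 without a partner. None of the named genes past the threshold changed sign in any setting.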

Other observations

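A further 18 probe sets carry several gene symbols, at least 1 of them a histone, and name no single gene. The probe set of H2AC18 and H2AC19, copies of H2A on chromosome 1, had 8.61, 8.34 and 8.31 with DMSO and 10.7 and 10.5 with LY294002. Its 4.61-fold rise (log2 2.20 ± 0.12, limma adjusted p = 0.0168) was larger than that of any of the 39 genes with a probe set of their own. A plain probe set annotated to 10 H3 copies and H2AC7 rose 1.98-fold (0.99 ± 0.04, limma adjusted p = 0.00626), from 4.63, 4.69 and 4.60 to 5.64 and 5.62. Another, annotated to 10 H3 copies, was 1.18 ± 0.14 higher (0.0539), while the other probe set for those 10 copies was at -0.17 ± 0.12 (0.481). The probe sets of the H3 copies thus differ in direction, although their annotation is the same. For 6 H2A copies, a probe set rose by 0.36 ± 0.03 (limma adjusted p = 0.0339) and another was 0.28 ± 0.05 higher (0.0832). The probe set shared by H3C4 and H2AC7 was 0.55 ± 0.09 higher (0.0832). Among H2B, 3 probe sets for the same 5 copies were 0.51 to 0.68 higher, and 0 passed limma.

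None of the 6 shared H4 probe sets passed limma (0 of 6), with differences of -0.12 to 0.051. The brightest of them had 9.32, 8.87 and 8.77 with DMSO and 8.76 and 8.96 with LY294002, and its groups overlapped. The variant H3.3 is read by a pair of probe sets that also carry other symbols. The first had 10.2, 10.5 and 10.3 with DMSO and 11.2 and 11.1 with LY294002 (0.77 ± 0.11, limma adjusted p = 0.0730). The second was at 0.12 ± 0.06 (0.431), with DMSO replicate 3 as high as LY294002 replicate 2.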
